A study of Mus musculus with 16 samples.

Results

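The genes described here are the 10 subunit genes of NMDA and kainate receptors that the array names: Grin1, Grin2a, Grin2b, Grin2c and Grin2d, and Grik1, Grik2, Grik3, Grik4 and Grik5. The rule takes every non-control probe that carries one of these gene names. The array carries 27962 gene names in all. The 10 genes have 16 probes of 41174, 8 for NMDA and 8 for kainate receptor subunits. The values are of lumbar spinal cord on 16 two-colour arrays, 4 for each of wild-type and SOD1G93A mice at 40 and at 80 days, ages before the onset of symptoms in this line. SOD1G93A mice carry a mutant human SOD1 transgene and model familial amyotrophic lateral sclerosis. The wild-type mice are age-matched mice without the transgene on the same B6SJL background, and all were male. The labels do not say whether an array held RNA of 1 mouse. On each array, spinal cord RNA carried Cy3 and a reference pool of neonatal heart, liver and kidney RNA carried Cy5, with the dyes never exchanged. A value is the log2 ratio of sample to reference after background correction and loess, so 1 unit is a doubling, and values of different probes cannot be set against each other.

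Glutamate opens both receptor families, which are cation channels built of 4 subunits. NMDA receptors need the GluN1 subunit (Grin1), which binds the coagonist glycine or D-serine, together with GluN2 subunits (Grin2a to Grin2d), which bind glutamate and set the kinetics and the block by magnesium of the channel; open channels pass calcium. Kainate receptors are built of GluK1 to GluK3 (Grik1 to Grik3), which can form channels by themselves, and of GluK4 and GluK5 (Grik4 and Grik5), which need a partner of the first kind. In the spinal cord, NMDA receptors take part in excitation of motor neurons and in pain pathways, and GluK1 is known from sensory neurons and the dorsal horn. In motor neuron disease, excess glutamate receptor activity is one of the long-studied routes of injury.

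The probes are stretches of 60 bases. Full sequences are given for Grin1 and for the second Grik1 probe, and the first 30 bases for the first Grik1 probe and for Grik4, all 5′ to 3′ and in lower case, as the files hold them. Positions are those of the files, on build mm7 (NCBI35). Whether a probe lies in coding sequence or in a UTR was not determined, because no annotation of that build was used.
Grin1 A_52_P69292, minus strand, chr2:25303359-25303418: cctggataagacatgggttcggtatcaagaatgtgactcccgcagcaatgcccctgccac
Grik1 A_52_P660400, minus strand, chr16:87963822-87963881: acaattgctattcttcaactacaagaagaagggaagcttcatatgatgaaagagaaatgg
Grik1 A_51_P282609, minus strand, chr16:87945735-87945794: gctcacatagatattacttgaggagtgaaa
Grik4 A_51_P384994, minus strand, chr9:42454857-42454916: gccgagagagcagtccaagaattgatggtg

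Signal over background decided which subunits could be compared. Grin1, Grin2c (A_51_P436269), Grin2d (A_51_P157154), Grik2 (A_52_P270135), Grik4 and Grik5 (A_51_P428754) each had a probe with Cy3 signal well above background on 16 of 16 arrays, as had the Grik1 probe A_51_P282609. The brightest of these spots belonged to Grik4, with a median Cy3 signal between 420 and 637.5 scanner units over a local background of 33 to 39. Grin1 gave 87 to 113 units over 34 to 40, and Grin2a (A_51_P460570) gave 54 to 66 over 34 to 39, well above background on 15 arrays. The second Grik1 probe and the Grin2b probe A_51_P229869 were well above background on 14 arrays, and in each the 2 arrays without that mark were wild-type arrays of 40 days. Both probes of Grik3, A_51_P258348 and A_52_P60243, were at background, with 0 and 1 of 16 arrays well above it. The second Grik2 probe, A_52_P655120, was well above background on 0 of 16 arrays, and the remaining Grin2b probes, A_51_P265765, A_52_P248920 and A_52_P367017, on 4, 0 and 0 of 16. A filter asked for a well above background mark on at least 3 of 4 arrays of a group, and 10 probes of 9 genes passed it. Grik3 has no value here other than that it was not well above background.

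**Figure D1:**
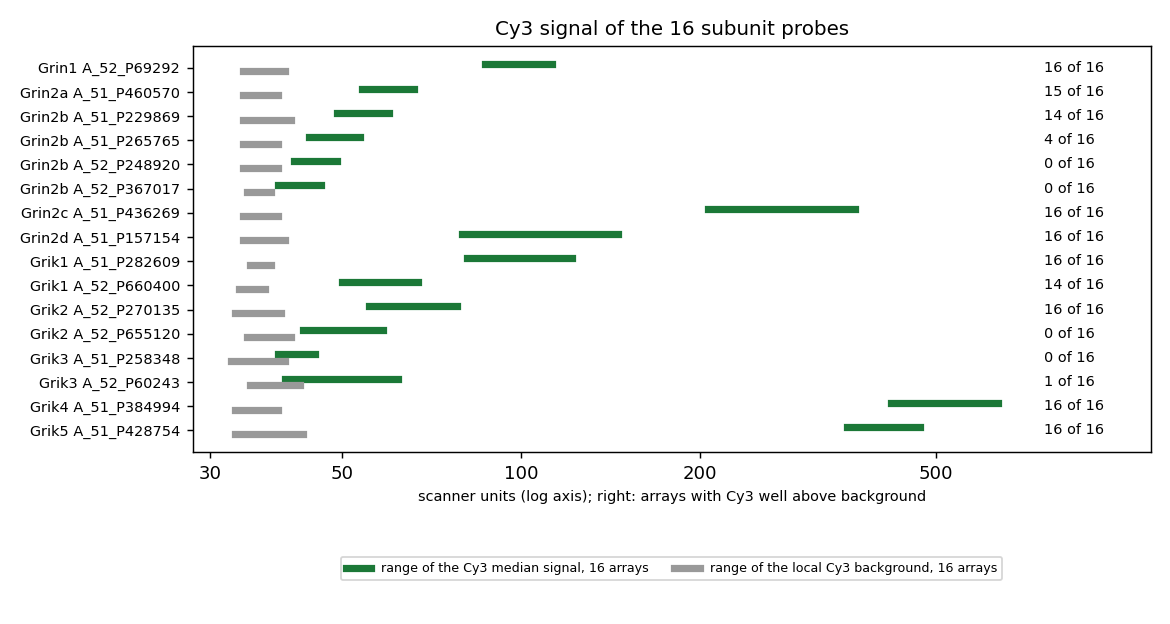
Range of the Cy3 median signal (green) and of the local background (grey) over 16 arrays for each of the 16 probes, in scanner units on a log axis, with the number of arrays well above background at the right. Grik4 reaches 420 to 637.5 units, while the Grik3 probes are marked on 0 and 1 of 16 arrays.

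For several of these genes the reference gave little signal. In Cy5, the Grin2a, Grin2b and both Grik1 probes were well above background on 0 of 16 arrays, Grik2 on 1 and Grin1 on 11, whereas Grin2c, Grin2d, Grik4 and Grik5 were on all 16. A ratio over a reference near background has a denominator set largely by the offset of the correction.

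The replicate number is also the number of the slide, each of which carried 1 array of each group. Within a slide a group always took the same place, so the effects of place and group cannot be told apart. Replicates are arrays that the labels list as separate samples, and p-values measure the spread between them. The share of probes well above background in Cy3 was 46.1% to 55.3% over the arrays. In bulk tissue, fewer cells of a type and less RNA per cell cannot be told apart. The mouse Sod1 probes do not check the genotype labels, since whether they bind the human transgene was not tested. They differed between genotypes by -0.011 and 0.11 on the log2 scale at 40 days and by -0.17 and -0.038 at 80 days.

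At 40 days, the question is whether the subunits differ between genotypes long before symptoms. Both Grin1 and Grin2a were higher in SOD1G93A mice at an unadjusted limma p under 0.05, by 0.25 and 0.13 on the log2 scale, and none of the 5 kainate receptor probes passed the test. Of the 10 probes tested, 2 were called, both higher, beside 4.47% of the 21336 probes tested on the array. The median change of the 10 probes was 0.038, against 0.0029 over all tested probes. No adjusted p of a probe of these genes was below 0.998.

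Grin1 read 1.56, 1.24, 1.28 and 1.56 on the 4 wild-type arrays and 1.81, 1.73, 1.43 and 1.67 on the 4 SOD1G93A arrays of 40 days. The groups overlap, since the SOD1G93A array of slide 3 lies below both high wild-type arrays. The means were 1.41 ± 0.17 and 1.66 ± 0.17 (SD, n = 4), a change of 0.25 ± 0.10 (SE) with a limma p of 0.0354 and an exact permutation p of 0.114. Within slides the SOD1G93A sample was higher on 4 of 4, by 0.25, 0.49, 0.15 and 0.11, and with the slide as replicate block the limma p was 0.0133. The call was lost when wild-type replicate 2 or 3 or SOD1G93A replicate 1, 2 or 4 was left out, with limma p between 0.0654 and 0.0999. Local backgrounds over 20 units above their spot were set to the array's median, and without this reset the change was 0.15 (limma p 0.657). The call was also lost without background subtraction (0.17, p 0.0579), with processed signals (0.42, p 0.318) and with median centring (0.18, p 0.243). In the series matrix, the authors' own normalized values, the change was 0.11 (limma p 0.0368).

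Grin2a, which encodes GluN2A, the subunit of fast mature NMDA receptors, read 0.58, 0.50, 0.58 and 0.46 in wild-type mice and 0.61, 0.63, 0.71 and 0.70 in SOD1G93A mice at 40 days. The 4 SOD1G93A arrays lie above the 4 wild-type arrays, the only such separation among the 10 probes at this age. Over the array, 2.83% of the 21245 probes tested and measured on all 8 arrays separate in either direction. The change was 0.13 ± 0.054 (SE), with a limma p of 0.0356 and an exact permutation p of 0.0286, the smallest that 4 arrays against 4 allow. With the slide as replicate block the limma p was 0.0618, and the call was also lost without wild-type replicate 2 or 4 or SOD1G93A replicate 3 or 4 (limma p 0.0755 to 0.0921). Of 20 alternatives, 12 ended the call, among them bright local backgrounds not reset (0.10, limma p 0.489), no background subtraction (0.085, p 0.0653), the series matrix (0.079, p 0.0915) and processed signals (0.97, p 0.07), while median centring gave 0.22 (p 0.0225). The Cy3 signal of this probe is near background, and in 1 wild-type array it was not well above it.

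**Figure D2:**
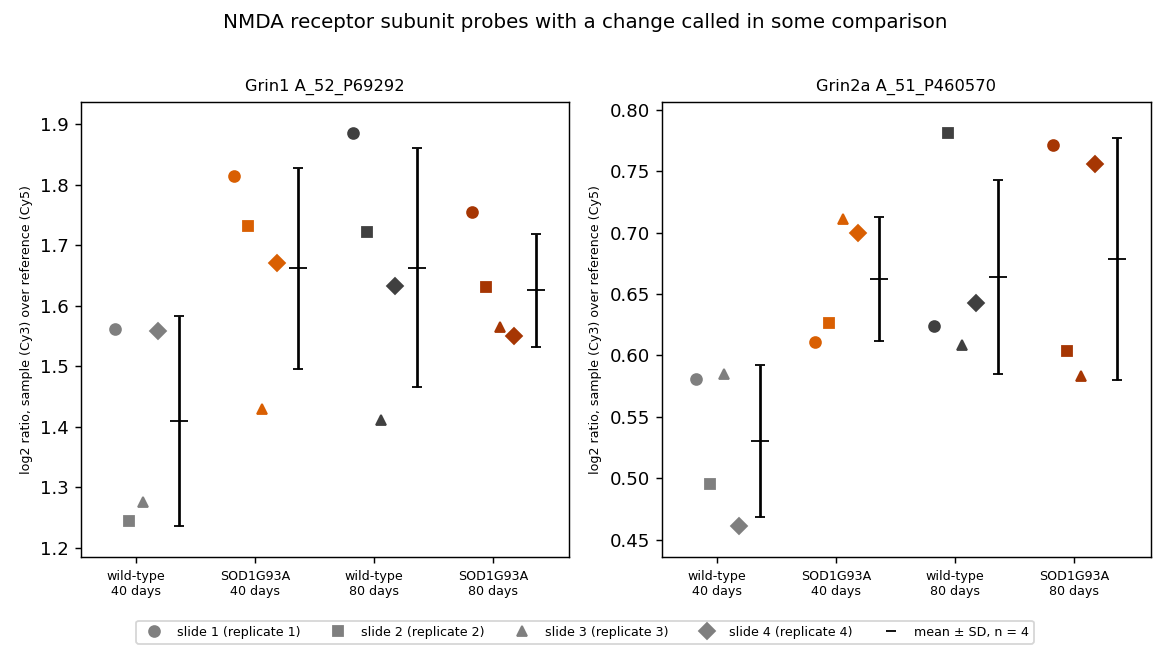
Log2 ratio of sample to reference on each array for Grin1 and Grin2a, with marker shape for the slide and the mean ± SD (n = 4) beside each group. Wild-type arrays of 40 days average 1.41 for Grin1 and 0.53 for Grin2a, below the means of the other 3 groups, which lie between 1.63 and 1.66 and between 0.66 and 0.68.

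At 80 days, still before symptoms, Grik4 was higher and the Grik1 probe A_51_P282609 was lower in SOD1G93A mice, by 0.24 and by -0.35 on the log2 scale. They were 2 of the 5 tested kainate receptor probes, and none of the 5 NMDA receptor probes passed the test. Whether the receptor families differ in their change was not tested. Of the 10 probes, 2 were called, 1 in each direction, beside 6.86% of 21601 probes on the array. The median change of the 10 probes was -0.0052, against -0.0012 over all tested probes. The smallest adjusted p among the 10 was 0.654.

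Grik4 encodes GluK4, a high-affinity subunit that joins GluK1 to GluK3. At 80 days it read 3.11, 3.16, 3.13 and 3.20 in wild-type mice and 3.28, 3.39, 3.53 and 3.34 in SOD1G93A mice. The groups do not overlap, which 4.31% of the 21506 probes tested and measured on these 8 arrays also show. The means were 3.15 ± 0.039 and 3.39 ± 0.11 (SD, n = 4), and the change was 0.24 ± 0.066 (SE), with a limma p of 0.00479 and an exact permutation p of 0.0286. The difference was positive on each of the 4 slides, from 0.14 to 0.40, and no single array left out ended the call. It was lost only where the bright local backgrounds were not reset (0.18, limma p 0.0705). At 40 days the same probe read 3.36, 3.11, 3.11 and 3.39 in wild-type and 3.24, 3.35, 3.16 and 3.19 in SOD1G93A mice, and the change was -0.0034 (limma p 0.967).

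Grik1 encodes GluK1. Its probe A_51_P282609 read 2.18, 1.78, 1.76 and 1.83 in wild-type and 1.93, 1.37, 1.56 and 1.29 in SOD1G93A mice at 80 days. Slide 1 was highest in both groups, so the groups overlap, but the SOD1G93A sample was lower on each slide, by -0.25, -0.41, -0.20 and -0.55. The change was -0.35 ± 0.14 (SE), with a limma p of 0.0329, an exact permutation p of 0.114, and a limma p of 0.0022 with the slide as replicate block. Leaving out wild-type replicate 1 or SOD1G93A replicate 2, 3 or 4 ended the call, with limma p between 0.0536 and 0.0964. The change was -0.70 with processed signals and -0.22 in the series matrix, and was called in both (limma p 0.00114 and 0.0131).

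The second Grik1 probe, A_52_P660400, read 0.92, 0.62, 0.67 and 0.77 in wild-type and 0.75, 0.56, 0.60 and 0.49 in SOD1G93A mice at 80 days. It did not pass the test, with a change of -0.14 ± 0.084 (SE) and a limma p of 0.114, and with the slide as replicate block the p was 0.0644. With each array left out it ran from -0.085, without wild-type replicate 1, to -0.19, without SOD1G93A replicate 1, where it passed the test (limma p 0.048). It also passed with processed signals (-0.92), with the Cy3 signal by itself (-0.13) and with the series matrix values (-0.12), and was 0.015 with median centring. Its within-slide differences were negative on 4 of 4 slides. Over the 16 arrays the log2 ratios of both probes had a Pearson r of 0.89, and 0.80 for the deviations from the group means. They are probes of 1 gene on the same arrays, so the second is no independent sample.

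**Figure D3:**
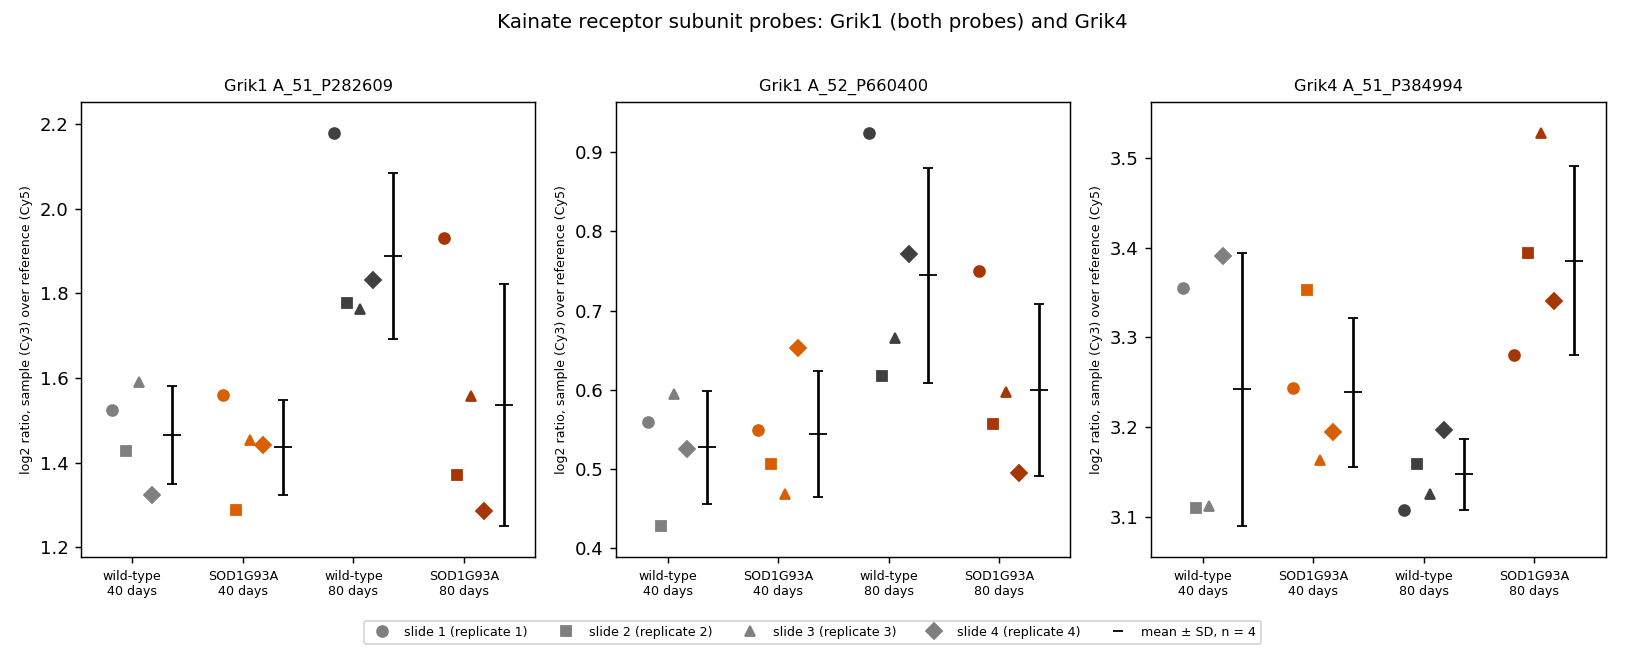
Log2 ratio of sample to reference on each array for both Grik1 probes and Grik4, with marker shape for the slide and the mean ± SD (n = 4) beside each group. At 80 days the Grik4 arrays of SOD1G93A mice (3.28 to 3.53) lie above those of wild-type mice (3.11 to 3.20), and slide 1 is highest for Grik1 in both groups.

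The change between genotypes was then compared between the ages on all 16 arrays. Grik4 was the only one of the 10 probes called, beside 6.68% of 21951 probes, with a change larger by 0.24 ± 0.10 (SE) at 80 than at 40 days (limma p 0.034, exact permutation p 0.0637, adjusted p 0.725). With the slide as replicate block the limma p of Grik4 was 0.0524, and the block instead called Grin1, which moved by -0.29 (limma p 0.0143, against 0.0718 without it), and Grik1 A_51_P282609, which moved by -0.32 (0.0202, against 0.0822). Leaving out any of 8 arrays, 4 of each age, ended the Grik4 call, with limma p between 0.0506 and 0.0781, and over 28 alternatives the value ran from 0.15 to 0.33 and 13 ended the call. The second Grik1 probe moved by -0.16 (limma p 0.137) and Grin2a by -0.12 (limma p 0.184).

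With age, 4 probes passed the test in wild-type mice from 40 to 80 days, all higher at 80 days, and none of the 10 passed the test in SOD1G93A mice. The background was 15.1% of 21951 probes called in wild-type and 16.9% in SOD1G93A mice. These comparisons use the same arrays as the genotype comparisons, so each value below repeats part of one above. The Grik1 probe A_51_P282609, which had read 1.52, 1.43, 1.59 and 1.32 at 40 days, rose in wild-type mice by 0.42 ± 0.12 (SE; limma p 0.00332, adjusted p 0.106). All 4 arrays of 80 days lie above all 4 of 40 days (exact permutation p 0.0286). The share of all probes without overlap between the ages was not determined, so this and the separations below have no background beside them. With the slide as replicate block its limma p was 0.000279 and its adjusted p 0.0312. Over all probes, though, deviations of wild-type arrays of both ages on the same slide correlated by only -0.0028, -0.044, 0.019 and -0.0041. Its change was 0.67 with bright local backgrounds not reset, 0.27 in the Cy3 channel alone and 0.21 with median centring, called in each. In the series matrix, whose ages were normalized separately, the change was 0.089, a value with no test.

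The Grik1 probe A_52_P660400, which had read 0.56, 0.43, 0.59 and 0.53, was higher at 80 days by 0.22 ± 0.073 (SE; limma p 0.00892, adjusted p 0.164), with no overlap of the groups, and by the block the limma p was 0.00529. In the compared groups it was well above background on 2 of 4 arrays at 40 days and on 4 of 4 at 80 days, so of these it met the filter through the higher group, and its value adds no support to that of the other probe. Its change was 1.41 with processed signals and 0.095 with median centring, where it was not called (limma p 0.217).

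Grin1 and Grin2a also rose in wild-type mice, by 0.25 ± 0.11 and 0.13 ± 0.060 (SE), with limma p of 0.0297 and 0.0399 and adjusted p of 0.268 and 0.3. Grin1 overlapped between the ages (exact permutation p 0.114), while Grin2a did not (0.0286), and with the slide as replicate block the limma p was 0.00393 for Grin1 and 0.0609 for Grin2a. Leaving out wild-type replicate 2 or 3 of 40 days or 1 or 2 of 80 days ended the Grin1 call, and leaving out replicate 2 or 4 of either age ended that of Grin2a. Neither was called with bright local backgrounds not reset (0.44 and 0.24) or without background subtraction (0.16 and 0.066), nor Grin1 with processed signals (0.30) or median centring (0.15), which gave 1.38 and 0.27 for Grin2a, both called. In SOD1G93A mice the same probes changed by -0.036 and 0.016, the Grik1 probes by 0.10 and 0.056, and Grik4 by 0.15 (limma p 0.0639).

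**Figure D4:**
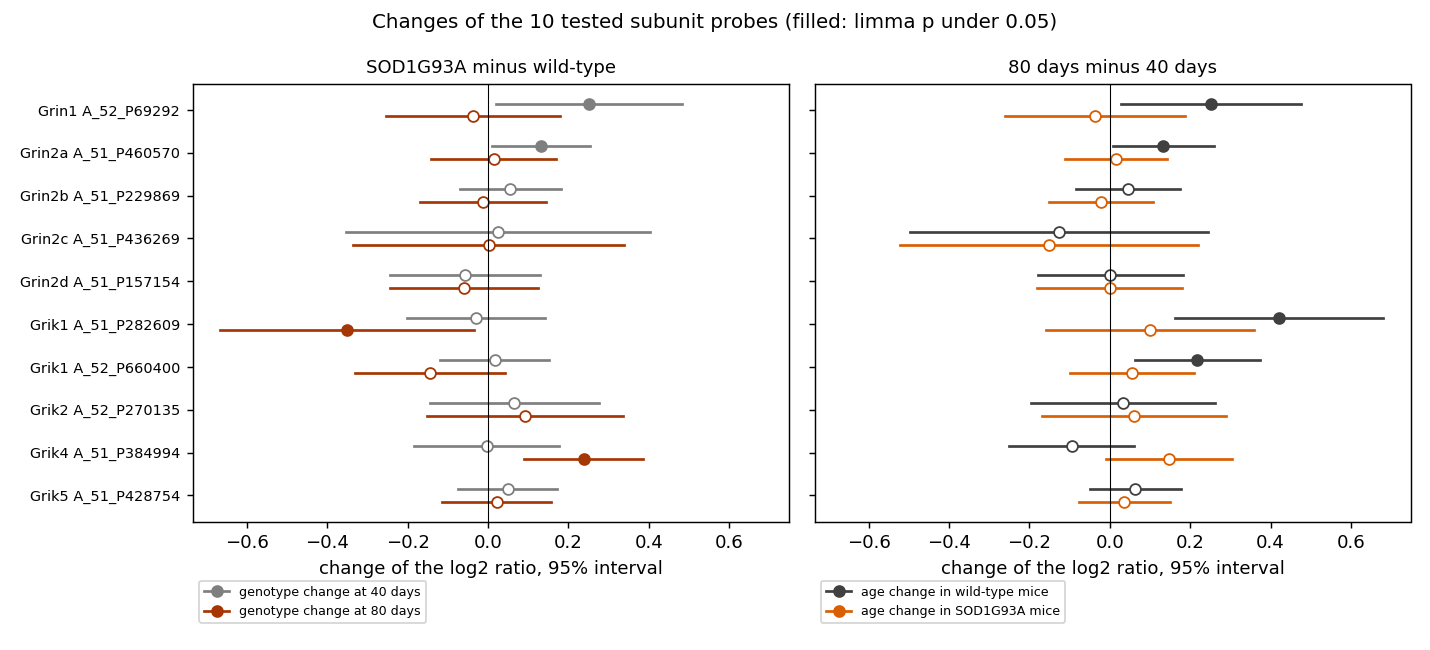
Change of the log2 ratio for each of the 10 tested probes with its 95% interval, at left SOD1G93A minus wild-type at both ages, at right 80 minus 40 days in both genotypes, with filled points for an unadjusted limma p under 0.05. The filled points are Grin1 and Grin2a at 40 days, Grik1 A_51_P282609 and Grik4 at 80 days, and Grin1, Grin2a and both Grik1 probes for age in wild-type mice.

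The other 5 probes passed no test in any of the 5 comparisons. Grin2b A_51_P229869 had group means between 0.36 and 0.41, and Grin2d between -0.10 and -0.041. Grin2b encodes GluN2B, the subunit of slower, early NMDA receptors. Its probe A_51_P229869 is not annotated to the RefSeq transcript of the gene. The probes that are, A_51_P265765 and A_52_P248920, did not pass the filter. Whether A_51_P229869 reads that transcript was not tested. Grin2c, known from cerebellum and some glia, had means between 2.60 and 2.75 and the widest spread, with an SD of 0.40 in wild-type mice at 40 days. The 95% interval of its genotype change ran from -0.35 to 0.40 at 40 days and from -0.34 to 0.34 at 80 days. These intervals include a change of the size seen in Grik4. Grik2 had means between 0.73 and 0.86. Its intervals, from -0.14 to 0.28 at 40 days and from -0.15 to 0.34 at 80 days, also include a rise of that size. Grik5, which like Grik4 encodes a subunit that needs a partner, had means between 1.40 and 1.48 and intervals from -0.074 to 0.17 and from -0.11 to 0.16.

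Arrays of 1 slide lay on the same side of their group means for several of the 10 probes. All 4 arrays of slide 1 lay above for 5 probes, Grin1, Grin2b A_51_P229869, both of Grik1 and Grik2, beside 9.40% of 21765 probes tested and measured on all arrays. All 4 of slide 2 lay below for both Grik1 probes (8.08% of all probes) and above for Grik5 (5.54%). All 4 of slide 3 lay below for 4 probes, Grin1, Grin2c, Grin2d and Grik2 (7.70%), and all 4 of slide 4 lay below for Grik5 (6.66%). The mean deviation of slide 1 was 0.16 for Grin1 and 0.22 for Grik1 A_51_P282609.

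The other genes around these receptors were counted in lists, to be read against the 4.47% of all probes called at 40 days and the 6.86% called at 80 days. In the order of the lists here, 0 of 11, 0 of 15, 0 of 15 and 2 of 13 probes were called in limma at an unadjusted p under 0.05 at 40 days, and 1 of 10, 0 of 16, 1 of 15 and 3 of 12 at 80 days. Of the auxiliary and trafficking proteins, 7 genes were tested, with none called at 40 days and 1 higher at 80 days, Gripap1, a partner of the scaffold GRIP1, in its probe A_52_P167958 (0.17, limma p 0.0414). Its other probe, A_51_P152873, changed by -0.058 (limma p 0.519). None of 9 scaffold genes tested was called at either age, and of 10 kinase and phosphatase genes, Camk2g, a subunit of the calcium/calmodulin kinase, was higher at 80 days (0.17, limma p 0.0256).

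Of 7 genes of coagonist supply and glutamate uptake, the glutamate transporters of astrocytes Slc1a2 (A_52_P168496) and Slc1a3 (A_51_P268697) each had a probe that was higher in SOD1G93A mice at 40 days (0.19, limma p 0.0232, and 0.19, limma p 0.0402). At 80 days the Slc1a2 probe was lower (-0.26, limma p 0.0268), and Slc1a4 (A_51_P371311), a serine and neutral amino acid transporter, and Slc6a9, the glycine transporter GLYT1, were higher (0.24, limma p 0.0107, and 0.22, limma p 0.0144). The median change of the 13 probes of this list at 40 days was 0.016, and that of its 12 probes at 80 days was -0.059. Slc1a2 and Slc1a4 each had another tested probe that was not called. For Slc1a2 A_51_P477875 the change was 0.30 at 40 days (limma p 0.103) and -0.27 at 80 days (p 0.0972), and for Slc1a4 A_52_P273098 it was 0.021 at 80 days (p 0.8). None of these had an adjusted p below 0.682.

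Cell type markers were set beside the subunits, with the same background shares of 4.47% at 40 and 6.86% at 80 days. Of 6 neuronal markers measured, 0 were called at 40 days and 1 was lower at 80 days, and their mean log2 ratio ran from 4.46 to 4.66 over wild-type and from 4.40 to 4.60 over SOD1G93A arrays at 80 days. Of 6 astrocyte markers, 2 were higher in SOD1G93A mice at 40 days, with a range of 2.71 to 2.89 against 2.58 to 2.74. Slc1a3 A_51_P268697, given above as a glutamate transporter, is 1 of these 2. Of 5 oligodendrocyte markers 2 were higher at 40 days, with a range of 6.02 to 6.31 against 5.79 to 6.13. At 80 days 0 of the 6 astrocyte markers were called, with a median change of -0.067 against 0.16 at 40 days, and 1 of the 5 oligodendrocyte markers was higher. Of 4 dorsal root sensory neuron markers on the array, 2 were not well above background on any array, and the 1 that was tested was lower in SOD1G93A mice at 40 days. The mean log2 ratio of 3 skeletal muscle markers ran from -2.24 to 0.89 over SOD1G93A arrays with a mean of -1.10, against a mean of -1.96 over wild-type arrays, at 40 days. The marker lists of motor neurons, microglia, oligodendrocyte precursors, Schwann cells, endothelial cells, erythrocytes and skeletal muscle had 1 of their genes called between genotypes, an oligodendrocyte precursor marker that was lower at 40 days. Of 6 motor neuron markers, 3 were tested, and Chat was well above background on 0 of 16 arrays. Schwann cell markers had a median change of -0.89 at 40 days (3 tested) and -0.12 at 80 days (2 tested). For skeletal muscle it was 0.62 (2 tested) and 0.52 (3 tested). At 40 days the Schwann cell mean log2 ratio was -0.79 to 1.69 over wild-type and -0.75 to 1.07 over SOD1G93A arrays. These few markers cannot show unchanged cell content. The part of the listed cell types in the values of the subunits was not tested.

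The probes most like the leading subunit probes over the 16 arrays were found among 20086 probes of named genes. For Grin1 they were Nppc (Pearson r 0.93), Gfra4 (0.88) and Slc2a6 (0.87), and for Grik4 they were Efnb3 (0.93), Mthfd1 (0.91) and Osbpl9 (0.89). The arrays share slides and the reference, and the values describe these arrays only.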

How the data were processed

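Spinal cord RNA was measured on 16 arrays, grouped by the genotype and age in the labels. The authors extracted spots with Agilent Feature Extraction 9.5.3.1, per the file headers, and the deposited median signals, backgrounds and processed signals are linear intensity values. The deposited series matrix holds log2 values that follow the Cy3 signal (Spearman correlation 0.977 to 0.989) and were normalized separately at each age.

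The ratios come from limma 3.58.1, with statmod 1.5.0, run in R 4.3.3. A local background over 20 units above its spot's signal was set to the array's median background, then normexp (offset 50) and loess within arrays were applied, with control and outlier spots left out. A few such backgrounds otherwise distort whole arrays: the slope of an array's ratios against the other arrays of its age ran from 0.951 to 1.03 with this step and from 0.789 to 1.09 without it. Probes of 1 gene were kept apart. A probe was tested if well above background in Cy3 on 3 or more of the 4 arrays in a group, with 2 or more arrays measured in each group. Genotypes were compared within each age on 8 arrays, other comparisons on 16, with lmFit and eBayes. Calls were made at an unadjusted two-sided p under 0.05, with Benjamini-Hochberg adjusted p over all tested probes beside them. Exact permutation tests moved labels among 4 arrays against 4 (70 ways, smallest p 0.0286), or within each age for the difference between ages (4900 ways).

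The members and lists were chosen with earlier results of these data known. The result of 1 list is not reported here, and sequences are shown for 4 probes. All probes of the members are named. Of each list, genes called in a genotype comparison are named, up to 4 by smallest p, and so are the 3 probes most like the member with the smallest p at each age. Tested on simulated data with 4 arrays per group, limma recovered 83.6% of probes changed by 0.25 at 40 days and 73.1% at 80 days. Each share rests on 67 probes taken at random. The simulated noise was normal and independent between arrays, with the SD of each probe and no slide effect. A rate for a single member probe was not determined. Deviations of same-numbered arrays, which share a slide, correlated from -0.066 to 0.23, over 0.1 in 5 of 16 pairs. Between genotypes at 40 days, slides 1 to 4 gave 0.13, -0.066, -0.024 and -0.064. The highest values with a differently numbered array were -0.017, 0.075, 0.081 and 0.079. At 80 days the slides gave 0.007, 0.097, 0.20 and -0.0016, against 0.18, 0.085, 0.23 and 0.22. Sharing a slide thus did not regularly give the higher value between genotypes. Between the ages in wild-type mice the slides gave -0.0028, -0.044, 0.019 and -0.0041, against 0.065, 0.097, 0.062 and 0.082. In SOD1G93A mice the ages gave 0.23, 0.18, 0.15 and 0.090, against 0.026, 0.072, 0.0044 and 0.030. There the shared slide gave the higher value on each of the 4 slides. Alternatives changed the background correction, spot signal, normalization, channel, filter, arrays in the fit, array weights, the replicate block and each array in turn. The plots used matplotlib 3.10.9 (Python 3.11.15).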

Additional observations from a re-analysis of the deposited data

Results flagged for a closer look

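In 2 of 40 groups of 4 arrays, 1 array stood apart from the other 3 by more than Dixon's 95% critical value, and chance flags about 1 in 20 groups. For Grin2b A_51_P229869, SOD1G93A replicate 2 at 40 days read 0.33 against 0.43 to 0.45 on the other arrays. For Grik1 A_51_P282609, wild-type replicate 1 at 80 days read 2.18 against 1.76 to 1.83, and without it the genotype change at 80 days was -0.25 (limma p 0.0964).

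The genotype change of Grik4 differed between the ages by 0.24 on the log2 scale in limma's interaction test (p 0.034). The exact permutation p was 0.0637.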

How the results depend on the processing

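At 40 days, 2 of the 10 probes of these genes were called. The number was 0 with bright local backgrounds not reset, without background subtraction, with processed signals, and with wild-type replicate 3 and SOD1G93A replicate 4 both left out, an alternative chosen after seeing the data. It was 1 with median centring, in the Cy3 channel alone, in the series matrix, with the filter that asks for all arrays, with array weights and with the replicate block, and 0 to 2 with each array left out. Under the filter that asks for all arrays, Grin2a, Grin2b A_51_P229869 and Grik1 A_52_P660400 were not tested, here and in the comparisons on 16 arrays. Their calls were thus removed by that filter and not lost in a test. At 80 days, 2 were called, 1 with bright local backgrounds not reset, and 1 to 3 with each array left out, while the replicate block gave 2. For the difference between the ages, 1 was called, against 0 with bright local backgrounds not reset, 2 with processed signals and with the replicate block, 3 with Cy3 alone, with the series matrix and with median centring, and 0 to 2 with each array left out. For age in wild-type mice, 4 were called, against 2 with bright local backgrounds not reset, without background subtraction and with the filter that asks for all arrays, which left Grin2a and Grik1 A_52_P660400 untested, 5 of 16 with no filter on dim probes, and 2 to 4 with each array left out. In SOD1G93A mice, 0 were called in limma at an unadjusted p under 0.05, against 1 without background subtraction and in the Cy3 channel alone, and 0 to 1 with each array left out. The cause was not tested. Over the same alternatives, calls among all tested probes ran from 247 to 1893 at 40 days and from 974 to 2412 at 80 days. For the difference between the ages they ran from 797 to 2459. For age they ran from 2507 to 5004 in wild-type and from 2481 to 4980 in SOD1G93A mice. The number of probes tested changes with the filter, so these counts are not shares. The member counts were not set against the share called in each setting.

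Several small changes turned sign. At 40 days, Grik4 read 0.016 without background subtraction, 0.013 with processed signals, 0.083 in the Cy3 channel alone, 0.073 in the series matrix, and -0.047 to 0.046 with each array left out. Grik1 A_52_P660400 read -0.0013 with backgrounds not reset, -0.0052 without subtraction and -0.019 to 0.042 with each array left out, and Grik1 A_51_P282609 read 0.0093 with both arrays left out and -0.078 to 0.019 with each. At 80 days, Grin2a read -0.050 with backgrounds not reset, -0.63 with processed signals, -0.10 with median centring, -0.0057 in the series matrix, -0.017 with array weights and -0.017 to 0.053 with each array left out. Grik1 A_52_P660400 read 0.015 with median centring, and Grin1 -0.12 to 0.037 with each array left out.

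With age in wild-type mice, Grik4 read 0.073 with backgrounds not reset and 0.038 in the Cy3 channel alone. In the series matrix, whose ages were normalized separately, Grin2a read -0.19 and Grik1 A_52_P660400 -0.12. There Grin1 read 0.019 and Grik1 A_51_P282609 0.089, which kept their sign. None of these series matrix values has a test. In SOD1G93A mice, Grin1 read 0.16 with backgrounds not reset and -0.11 to 0.015 with each array left out. Grin2a read -0.22 with processed signals, -0.048 with median centring, -0.0044 in the Cy3 channel alone and -0.015 to 0.048 with each array left out. Grik1 A_51_P282609 read -0.22 with processed signals, -0.080 with median centring and -0.031 to 0.18 with each array left out. In the series matrix, Grin2a read -0.27 and Grik1 A_52_P660400 -0.28 in SOD1G93A mice, values with no test. Of 621 values of the other 5 probes under alternatives, 88 turned sign and 0 were called in limma at an unadjusted p under 0.05.

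Over all probes at 40 days, 953 were called, against 247 with bright local backgrounds not reset, 1615 with processed signals, 553 in the Cy3 channel alone, 538 in the series matrix, 1881 with no filter on dim probes and 1893 without wild-type replicate 4. At 80 days 1481 were called, against 2412 with no filter, 2388 with array weights and 974 without SOD1G93A replicate 3. For the difference between the ages 1466 were called, against 797 with backgrounds not reset and 2459 with no filter, and for age in wild-type mice 3306, against 5004 with no filter. The filter left 21336 probes tested at 40 days, 21601 at 80 days and 21951 in the other comparisons, of 41174 on the array. With no filter, dim probes were tested too. The share called there was not determined, so the higher counts with no filter do not show a higher rate. Low signal over background limits Grik3, the dim Grin2b probes and the second Grik2 probe, for which only a bound exists.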
